A study of Homo sapiens with 20 samples.

Results

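Long intergenic noncoding RNA genes that carry a LINC symbol were followed in HEK293T cells, a transformed human embryonic kidney line, after knockdown of the ubiquitin ligase HUWE1. Members were all symbols made of LINC and a number whose mean level was 1 TPM or more both over the 4 non-targeting (NT) siRNA libraries of set 1 and over the 4 NT libraries of sets 2 and 3. TPM is a read abundance scaled for transcript length and library total. The rule named LINC01411, LINC02154 and LINC01786 as well, and these genes also met the level minimum. It gave 135 members of 1912 LINC symbols and 45372 symbols in all. The 3 named genes entered the rule because of how they moved in set 3, so their values below are a description without a test. The level minimum used control means, and the 132 other members were tested.

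Every library came from HEK293T cells transfected with siRNA, and each group held 4 biological replicates per the series' design text. The groups were HUWE1 siRNA of set 1 with its own NT siRNA controls in a first table, and HUWE1 siRNA of set 3, HUWE1 siRNA of set 2 and NT siRNA shared by sets 2 and 3 in a second table. The labels of the first table carry no set number, and they do not say what separates the sets. RNA was isolated with Trizol and sequenced after stranded mRNA library preparation, a method that selects polyadenylated RNA, and the depth of each library is unknown because TPM keeps none.

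LINC symbols are placeholders given to long noncoding RNA genes that lie between protein-coding genes and have no other name. Most are transcribed by RNA polymerase II, capped, spliced and polyadenylated like messenger RNA, but at lower levels and with faster nuclear decay by the RNA exosome. A few have known functions, for example as scaffolds, as decoys for microRNAs, as regulators of a neighbouring gene, or as carriers of a short open reading frame, and for most no function is established.

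HUWE1 transcript was 86.1, 86.9, 83.5 and 83.6 TPM in HUWE1 siRNA libraries of set 1, against 157, 162, 155 and 155 TPM in its NT libraries. It averaged 84.8 ± 5.42 TPM in set 3 and 94.6 ± 2.26 TPM in set 2, against 163 ± 3.49 TPM in their NT libraries (SD, n = 4 each), and the 2-sided exact permutation p was 0.0286 in each of the 3 sets, the smallest that 4 against 4 allows. Of the markers of the line, NEFL was at 70.9 to 106 TPM, KRT18 at 61.5 to 77.0 TPM, VIM at 472 to 913 TPM and PAX2 at 1.67 to 4.37 TPM over all libraries, and NEFM, INA, CDH2 and KRT8 were also present. Of markers of fibroblasts, blood cells and hepatocytes, HBB was at 0 and PTPRC, SERPINA1, COL1A2 and DCN were at or under 0.167 TPM. The fibroblast markers COL1A1 (5.60 to 11.4 TPM) and LUM (1.56 to 7.71 TPM) were present in every library. The hepatocyte marker APOA1 was at 0.4965 to 1.26 TPM over all libraries. THY1, CD3E and TTR reached 1.98, 1.87 and 1.23 TPM in their highest libraries. In the second table, NT replicates 1 and 4 lay at the opposite ends of the first component of the variation within groups, which held 39.6% of that variation, with scores of 24.7 and -25.0. The members called in set 3 and the 3 named genes are also given without these libraries. In bulk RNA, fewer cells that express a gene and less RNA per cell cannot be told apart.

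By GENCODE release 29 on the files' build (hg38), 134 members were found, and LINC00653 was not. Their type was lincRNA for 105, processed transcript for 13, antisense for 12 and another type for 4. Chromosome 1 held 22, chromosome 2 held 11 and chromosome X held 10. The longest transcript had a median of 1736 bases, from 370 to 9557, and the largest exon number had a median of 3 and a maximum of 24, with 18 members made of a single exon. A protein-coding gene lay within 5 kb of 57 members and overlapped 28 of them. For 29 members, another gene had a transcript of at least 95% identity over at least 50% of a transcript of the member. Such genes are called near-identical copies below. They need not lie elsewhere in the genome, and RHOF, counted for LINC01089, overlaps it. Their positions were not compared with those of the members. The authors' counting could have split reads between such genes, so the levels of these members are uncertain.

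The starts of 86 members are in RefSeq (GRCh38.p14), and 300 bases from 250 before to 50 after the start were searched on both strands. Promoters of expressed LINC genes held a median of 20 CpG dinucleotides, against 4 in the 1643 promoters of LINC symbols that are not members and 14 in all 35116 promoters. The E-box CACGTG was present in 15.1% of the members' windows, against 4.50% of those of other LINC symbols and 7.26% of all. CCAAT on either strand was present in 46.5% of members' windows, against 35.3% of those of other LINC symbols and 34.6% of all. The rule that selected members by level separates these sets, so the shares describe expressed LINC genes and are no test. Shown are the windows of LINC00472 and LINC02268, both called in 2 sets, of LINC01144, which fell most in set 1, and of LINC01411, which stood above every control in set 3. Capitals mark CCAAT or its reverse complement ATTGG, which overlap once in LINC00472, and no CACGTG was in these 4 windows.
LINC02268 (chr4:174220349-174220648, minus strand): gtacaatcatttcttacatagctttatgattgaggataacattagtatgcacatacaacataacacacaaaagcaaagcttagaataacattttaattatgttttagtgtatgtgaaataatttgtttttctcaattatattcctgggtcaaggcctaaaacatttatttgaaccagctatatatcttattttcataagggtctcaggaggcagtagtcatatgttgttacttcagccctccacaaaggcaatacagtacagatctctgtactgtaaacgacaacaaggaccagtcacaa
LINC00472 (chr6:71420696-71420995, minus strand): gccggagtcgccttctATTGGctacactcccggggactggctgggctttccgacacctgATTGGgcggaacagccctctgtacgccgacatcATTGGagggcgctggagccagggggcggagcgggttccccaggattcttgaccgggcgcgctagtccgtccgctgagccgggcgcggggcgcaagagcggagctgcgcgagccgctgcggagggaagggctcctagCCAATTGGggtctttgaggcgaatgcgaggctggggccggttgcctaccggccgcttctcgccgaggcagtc
LINC01144 (chr1:45303660-45303959, plus strand): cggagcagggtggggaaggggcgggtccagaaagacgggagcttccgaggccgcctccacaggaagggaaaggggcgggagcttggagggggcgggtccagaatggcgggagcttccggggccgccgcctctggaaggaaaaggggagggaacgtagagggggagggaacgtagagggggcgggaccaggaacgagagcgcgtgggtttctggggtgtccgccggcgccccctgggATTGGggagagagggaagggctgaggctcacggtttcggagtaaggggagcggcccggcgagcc
LINC01411 (chr5:174336104-174336403, plus strand): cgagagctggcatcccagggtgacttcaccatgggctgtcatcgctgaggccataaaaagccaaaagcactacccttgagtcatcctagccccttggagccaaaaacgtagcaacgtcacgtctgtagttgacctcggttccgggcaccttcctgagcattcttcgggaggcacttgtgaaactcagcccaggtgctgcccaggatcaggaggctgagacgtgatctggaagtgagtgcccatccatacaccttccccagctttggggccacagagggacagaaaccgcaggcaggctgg
The LINC00472 window had 31 CpG and 68.7% G or C, with 5 CCAAT matches counted over both strands. LINC01144 had 25 CpG and 1 match, LINC01411 had 10 CpG and no match, and LINC02268 had 1 CpG, 33.3% G or C and no match. A match is a string of letters and not a bound site.

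Most members were expressed at a low level. The median control mean was 3.97 TPM in NT libraries of set 1 and 3.73 TPM in those of sets 2 and 3, and 31 and 26 members reached 10 TPM. The highest in the mean of both tables was LINC00641, at 44.4 ± 1.27 TPM in NT libraries of set 1 and 45.5 ± 4.995 TPM in those of sets 2 and 3 (SD, n = 4). Next came LINC00342 (54.8 ± 2.19 and 26.9 ± 2.43 TPM), LINC01001 (55.6 ± 2.86 and 20.7 ± 1.29 TPM), LINC01578 (34.6 ± 2.48 and 37.6 ± 0.372 TPM), which is CHASERR, the regulator of its neighbour CHD2, and LINC01670 (25.1 ± 3.26 and 28.2 ± 2.73 TPM). LINC00294, LINC02381, LINC01002, LINC01786, LINC01963, LINC02604 and LINC00339 completed the 12 highest. Of these, LINC00342, LINC01001, LINC01670, LINC01002 and LINC00339 have near-identical copies by the measure above, which does not show a separate locus. Just inside the level minimum were LINC01977 (1.33 and 1.02 TPM), LINC02542 (1.03 and 1.44 TPM) and LINC02614 (1.70 and 1.04 TPM), and just outside were LINC00461 (0.992 and 1.02 TPM), LINC00957 (0.983 and 1.93 TPM) and LINC02609 (0.970 and 1.46 TPM), each in NT libraries of set 1 and then of sets 2 and 3.

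The control levels of the 2 tables, which were normalized separately and never tested together, had a Spearman correlation of 0.85 over the 135 members, a description across genes. The ratio of set 1 to sets 2 and 3 had a median of 1.04. It was over 2 for 16 members and under 0.5 for 5. LINC00893, antisense to CXorf40A on chromosome X and nearly identical to LINC00894, had the highest ratio, 4.57, with 21.7 TPM in NT libraries of set 1 and 4.75 TPM in those of sets 2 and 3. LINC00667 (3.19), LINC02166 (3.13) and LINC02268 (3.10) followed it, and LINC02154, at 24.1 and 9.40 TPM, had a ratio of 2.57. LINC01431 had the lowest ratio, 0.379.

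**Figure D1:**
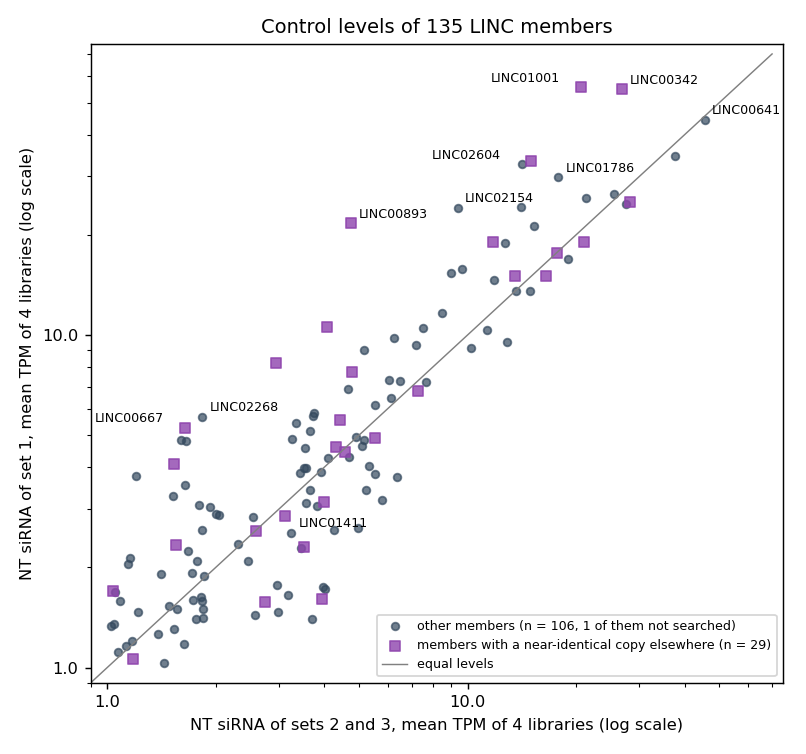
Mean TPM of 4 NT siRNA libraries for each of 135 LINC members, on log scales. Set 1 is on the vertical axis and sets 2 and 3 are on the horizontal axis. Squares mark the 29 members with a near-identical copy, which may overlap the member. Most points lie near the line of equal levels, and LINC00893, at 21.7 and 4.75 TPM, lies farthest above it.

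Replicate spread limited what could be seen. The median coefficient of variation of a member over 4 libraries was 8.93% in HUWE1 siRNA and 10.1% in NT libraries of set 1. It was 10.9% in HUWE1 siRNA libraries of set 3, 11% in those of set 2 and 16.4% in their NT libraries, where 37 members had a spread over 25%. Over all genes tested, the spread was smaller in each group, from 4.76% in HUWE1 siRNA of set 1 to 10.1% in NT of sets 2 and 3. The summed level of the 135 members was 1058 ± 22.8 TPM in HUWE1 siRNA and 1084 ± 1.92 TPM in NT libraries of set 1, with no overlap between the 4 values of each. Without the 12 highest members the sums were 685, 676, 647 and 653 TPM in HUWE1 siRNA and 676, 679.8, 682 and 674 TPM in NT libraries of set 1, which overlapped. The sum of all 135 members was 894 ± 8.66 TPM in set 3 and 894 ± 6.35 TPM in set 2, against 869 ± 39.2 TPM in their NT libraries, where the groups overlapped.

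In set 1, 32 of 132 members (24.2%) differed between HUWE1 siRNA and NT libraries at a limma adjusted p under 0.05, 13 higher and 19 lower, on the log2(TPM + 1) scale, which understates the fold change of low genes. Of all 16057 genes tested, 30.3% were called, 12.3% higher and 17.9% lower, so the members' share was not above that of all genes. At an unadjusted p under 0.05, 41 of 132 members (31.1%) and 41.9% of all genes differed. The median log2 fold change was -0.03 over the 135 members and -0.01 over all genes, and the members' median became 0.0011 under quantile normalization. Quantile normalization called 15 members higher and 13 lower, and median-of-ratios scaling called 14 in each direction, while of all calls 40.8% were higher without such scaling, 50.8% with quantile normalization and 50.5% with median-of-ratios scaling. The count fell to 18 with no filter on low values and to 18 of 51 members (35.3%, against 37.8% of all genes) with a mean of 5 TPM or more, and to 20 and 19 without HUWE1 siRNA replicates 3 and 4 of set 1. Of 22 members of set 1 checked by name, 13 kept their call under each alternative.

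The largest decrease was in LINC01144 (chromosome 1, 45303910 to 45305619, plus strand, a single exon within ZSWIM5 on the other strand). It was 7.51, 6.26, 5.89 and 5.02 TPM in HUWE1 siRNA libraries of set 1, against 9.90, 9.80, 11.6 and 10.7 TPM in NT libraries. All 4 treated values lay below all 4 controls (log2 fold change -0.69 ± 0.10 SE, adjusted p = 0.000847). ZSWIM5 went the other way, at 9.18 ± 0.290 TPM in HUWE1 siRNA and 8.07 ± 0.343 TPM in NT libraries (0.17, adjusted p = 0.0178).

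LINC01311 (chromosome 22, 19171395 to 19172839, a single exon) was 10.3, 10.1, 9.25 and 9.55 TPM in HUWE1 siRNA libraries of set 1, against 14.4, 11.2, 14.4 and 14.3 TPM in NT libraries (-0.43 ± 0.08, adjusted p = 0.00283). The nearest protein-coding gene, SLC25A1, the mitochondrial citrate carrier, was higher at 130 ± 3.20 TPM, against 117 ± 3.10 TPM (0.15, adjusted p = 0.00307). LINC00449 (chromosome 13, within TM9SF2 on the other strand) was 3.84 ± 0.485 TPM in HUWE1 siRNA and 5.82 ± 0.545 TPM in NT libraries (-0.50, adjusted p = 0.00217), and LINC01686 was 2.21 ± 0.543 and 3.54 ± 0.207 TPM (-0.51, adjusted p = 0.00802). In all of these the 4 values of each group did not overlap. The other decreases with the largest sizes were LINC00115 (-0.43), LINC02606 (-0.38), LINC01023 (-0.36) and LINC02268 (-0.31), and those of LINC02606 and LINC01023 lost their call under 3 and 7 of their alternatives.

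Smaller decreases were called in better expressed members. LINC00339, a neighbour of CDC42, was 16.1 ± 0.721 TPM in HUWE1 siRNA libraries of set 1 and 19.03 ± 0.549 TPM in NT libraries (-0.23, adjusted p = 0.00222). LINC02381, which overlaps SMUG1 on the other strand, was 23.4 ± 0.879 and 26.5 ± 0.570 TPM (-0.17, adjusted p = 0.0046), with no overlap. LINC00641 was 41.3 ± 0.243 and 44.4 ± 1.27 TPM (-0.10, adjusted p = 0.019), a call lost under median-of-ratios scaling (highest adjusted p 0.0524). LINC01578 (CHASERR) was 31.3 ± 0.672 and 34.6 ± 2.48 TPM with overlapping groups, and its call and that of LINC00294 were each lost under 11 of 16 alternatives. LINC00665, whose RNA carries a short open reading frame translated in human breast cancer cells, and LINC00963, first described in prostate cancer cells, fell by 0.17 and by 0.21.

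Of the members called higher in set 1, LINC00173, described in granulocyte and natural killer cell differentiation, was 5.45, 6.52, 5.57 and 5.79 TPM in HUWE1 siRNA libraries, against 3.64, 4.06, 4.46 and 3.96 TPM in NT libraries. The groups did not overlap (0.44 ± 0.07, adjusted p = 0.00147). LINC01033 was 7.55 ± 0.672 TPM in HUWE1 siRNA and 5.69 ± 0.193 TPM in NT libraries (0.35, adjusted p = 0.00249). LINC02593, on chromosome 1 with its start 2912 bases from that of SAMD11 on the other strand, was 26.6 ± 2.30 and 21.3 ± 0.709 TPM (0.30, adjusted p = 0.00317). LINC01670 was 32.2 ± 2.41 and 25.1 ± 3.26 TPM (0.35, adjusted p = 0.012), with 6 near-identical copies in the annotation, so the locus of the reads is uncertain. LINC02387 had the largest fold change, 0.49, at 2.55 ± 0.282 and 1.58 ± 0.669 TPM, with overlapping groups and a call lost under 10 of 15 alternatives. LINC02562 (0.39), LINC01876 (0.36) and LINC01977 (0.28) also lost their calls under some alternatives. The remaining calls of set 1 were LINC00472, LINC02482, LINC00491, LINC00894 and LINC01719 among the increases, from 0.18 to 0.27, and LINC00652, LINC01605, LINC00174 and LINC01006 among the decreases, from -0.23 to -0.16.

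**Figure D2:**
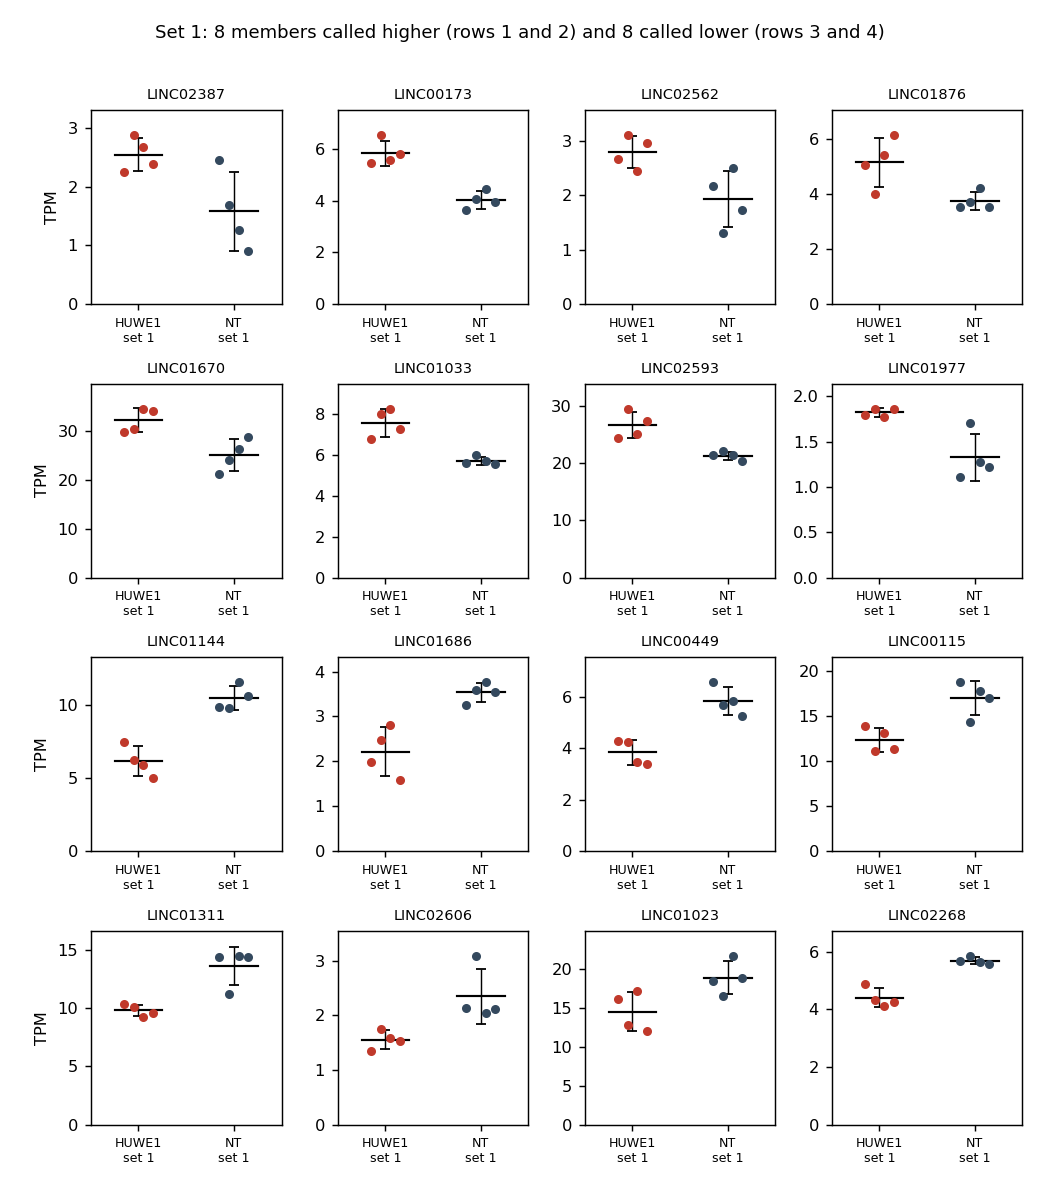
TPM of the 8 members with the largest called increases and the 8 with the largest called decreases in set 1; each dot is a library, bars are means ± SD (n = 4), HUWE1 siRNA left of NT siRNA. LINC02387, LINC02562 and LINC01876 among the increases and LINC01023 among the decreases have overlapping groups.

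Of the 18 single-exon members, 6 were called lower in set 1 and none higher by limma at the adjusted threshold, with LINC00115, LINC01144, LINC01686, LINC01023, LINC00294 and LINC01311 as the 6, against 13 higher and 13 lower of 113 tested members with 2 or more exons. This split was chosen after the values were seen and was not tested. Their median log2 fold change was -0.11 for single-exon and -0.01 for spliced members. The single-exon members were also better expressed, with a median control mean of 9.54 TPM in set 1, against 3.79 TPM for spliced members. Of 45 tested members with a control mean of 5 TPM or more, 4 were higher and 11 lower in set 1. Of 87 under 5 TPM, 9 were higher and 8 lower. Exon number and level were not separated. The summed level of the 18 was 180, 169, 170 and 156 TPM in HUWE1 siRNA libraries of set 1, against 202, 184, 199 and 196 TPM in NT libraries, without overlap. Among all tested genes that are not members, single-exon genes were called lower at 18% and higher at 4.76% of 1155, and genes with more exons were called lower at 18% and higher at 13.2% of 14437. Single-exon protein-coding genes were called lower at 29.4% and higher at 6.03% of 282.

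In the second table, single-exon members were often highest in 1 control library. NT replicate 1 was the highest of the 4 NT libraries for 13 of the 18, against 39 of the 116 spliced members and 6779 of 15860 tested genes. LINC01144 was 13.4 TPM there and 5.63, 6.98 and 4.04 TPM in the other NT libraries, and LINC01023 was 18.3 TPM there and 11.14, 10.47 and 10.98 TPM in the others. LINC01311 was 19.2 TPM in it, against 11.79, 12.03 and 11.47 TPM. The summed level of the 18 was 148, 155, 150 and 141 TPM in HUWE1 siRNA libraries of set 3, 141, 146, 159 and 159 TPM in those of set 2, and 201, 143, 162 and 142 TPM in NT libraries, so the treated values overlapped the range of NT replicates 2, 3 and 4 and lay under replicate 1. Set 3 was also fitted without this library, and of the single-exon members only LINC00115 has those values given below. That fit also covered other single-exon members, and their values are not given here.

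**Figure D3:**
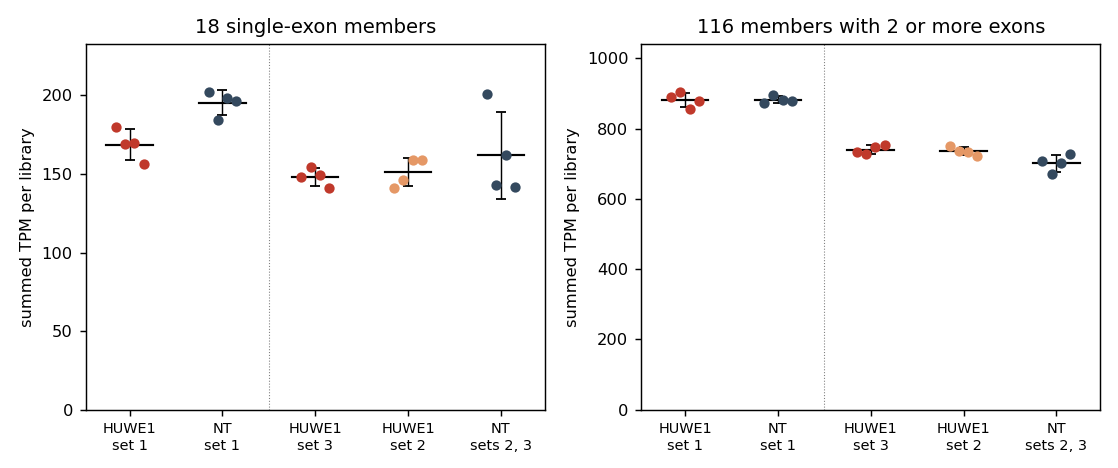
Summed TPM per library of 18 single-exon members (left) and of 116 members with 2 or more exons (right); dots are libraries, bars are means ± SD (n = 4), and a dotted line separates the 2 tables. In set 1 the single-exon sums do not overlap, at 156 to 180 TPM in HUWE1 siRNA and 184 to 202 TPM in NT libraries, and in sets 2 and 3 a single NT library stands at 201 TPM.

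Fold changes of LINC members had weak negative correlations with those of the nearest protein-coding gene. Over 49 pairs in set 1, Pearson's r was -0.16 and Spearman's rho -0.18, across pairs of genes from the same libraries and with no test. In set 3 the values over 48 pairs were -0.26 and -0.28. The pairs include LINC01786 with SCNN1D, and LINC01786 entered the rule because of how it moved in set 3. Of the distinct neighbours, 17 of 48 (35.4%) were called in set 1 and 6 of 47 (12.8%) in set 3, near the shares of all genes. Both partners were called in 7 pairs in set 1, and 3 of them moved the same way: LINC00294 with TCP11L1 (-0.23), LINC01006 with RNF32 (-0.40) and LINC00174 with TPST1 (-0.22), all overlapping pairs. Of those that moved in opposite directions, LINC01144 with ZSWIM5 (-0.69 and 0.17) and LINC02482 with AC093323.1 (0.26 and -0.25) also overlapped. LINC01719 with NBPF10 and LINC01311 with SLC25A1 did not. Nothing in the labels says whether counting used the strand, so reads of overlapping partners cannot be told apart.

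In set 3, 11 of 131 tested members (8.40%) were called by limma, 6 higher and 5 lower, against 11.6% of all 15860 genes, 7.45% higher and 4.15% lower. Among genes with a mean of 5 TPM or more, the order of these shares was the other way, with 10 of 49 members (20.4%) and 17% of all genes called. The median log2 fold change was 0.07 over 134 members and 0.01 over all genes, and 61.2% of members were above 0, against 51.5% of all. These medians and shares, here and for set 2, include the 3 named genes, which entered the rule because of how they moved in set 3. At an unadjusted p under 0.05, 39 of 131 members (29.8%) and 34.5% of all genes differed. In set 2, limma called no member at the adjusted threshold, and 17 of 131 had an unadjusted p under 0.05 (13.0%), against 0.0126% of all genes called and 8.83% with such a p. The median was 0.06 in set 2, against -0.0041 over all genes, with 64.2% of members and 48.3% of all genes above 0. Sets 2 and 3 share their NT libraries. Without the 3 named genes, members with a control mean under 5 TPM had medians of 0.08 in set 3 and 0.08 in set 2. Members at 5 TPM or more had medians of 0.01 in set 3 and -0.0035 in set 2. Over members of all levels, all scalings kept the medians of sets 2 and 3 above 0. But of the all-gene calls in set 3, 64.2% were higher. This share was 52.4% after quantile normalization, 48.9% after median-of-ratios scaling and 44.4% once mitochondrially encoded genes were left out.

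The count of 11 in set 3 depended on single libraries. It was 6, 2, 0 and 37 without NT replicates 1, 2, 3 and 4, and 22 without both replicates 1 and 4. As shares of the tested members these were 4.58%, 1.53%, 0%, 28.2% and 16.8%, against 4.69%, 2.5%, 1.61%, 37% and 20.3% of all genes under the same settings. The count was 2, 0 and 1 without HUWE1 siRNA replicates 1, 3 and 4 of set 3, 6 without replicate 3 of set 2, 2 with no filter, 6 with the replicate number as a block, and 0 when set 2 was left out of the fit. Each of the 11 calls was lost under at least 4 of its alternatives.

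**Figure D4:**
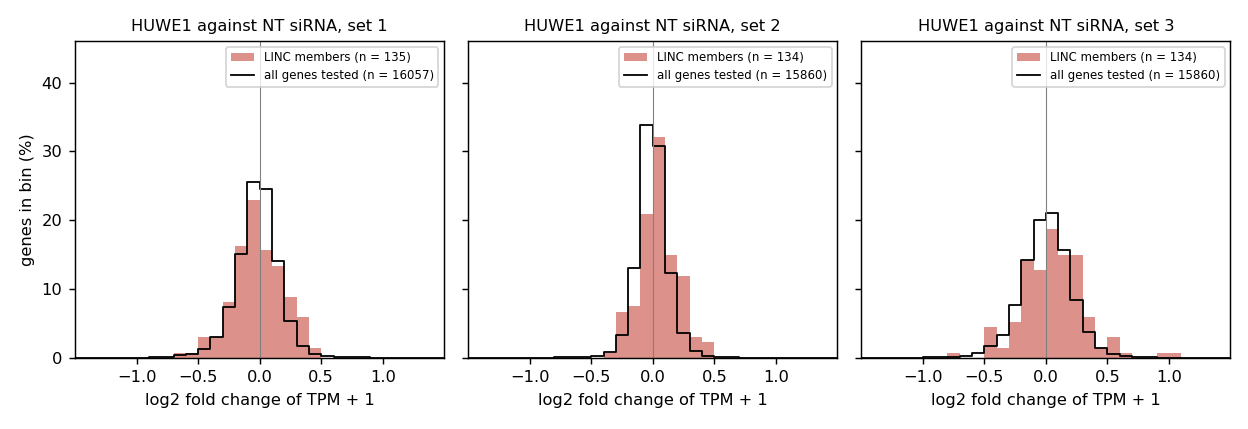
Distribution of log2 fold changes of TPM + 1 (HUWE1 siRNA over NT) for LINC members (bars) and all genes tested (line), as percent of genes per bin, for sets 1, 2 and 3. The members' median is -0.03 in set 1, 0.06 in set 2 and 0.07 in set 3.

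LINC01816 (chromosome 2, 70124036 to 70125317, minus strand) had the largest called increase in set 3. It was 5.92, 4.88, 5.44 and 4.14 TPM in HUWE1 siRNA libraries of set 3, against 2.20, 2.96, 2.65 and 4.02 TPM in NT libraries (0.63 ± 0.14 SE, adjusted p = 0.0224). The groups did not overlap, by a narrow gap to NT replicate 4. LINC00467, described as repressed by N-Myc in human neuroblastoma cells, was 6.64, 7.11, 8.26 and 8.94 TPM, against 3.91, 4.72, 5.11 and 6.09 TPM (0.56 ± 0.12, adjusted p = 0.0197), without overlap. LINC01355 was 18.5, 17.3, 24.1 and 21.9 TPM, against 11.2, 13.2, 14.9 and 16.8 TPM (0.52 ± 0.13, adjusted p = 0.0305). In set 2 the fold changes of LINC01816, LINC00467 and LINC01355 were 0.45, 0.28 and 0.35, none of them called. Without NT replicates 1 and 4 their fold changes in set 3 were 0.67, 0.55 and 0.50, and all 3 were called. Without NT replicate 1 alone, LINC01816 and LINC00467 were called and LINC01355 was not (0.42, adjusted p = 0.0661). All 3 calls were lost without NT replicate 2 and without NT replicate 3.

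LINC00342 was 33.0 ± 2.67 TPM in HUWE1 siRNA libraries of set 3 and 26.9 ± 2.43 TPM in NT libraries (0.29, adjusted p = 0.0335), with 2 near-identical copies. LINC01547 (chromosome 21, 44932814 to 44939913, minus strand) was 7.24 ± 0.217 and 6.05 ± 0.584 TPM (0.23, adjusted p = 0.04), and both groups of 4 stood apart. FAM207A, which starts 97 bases away on the other strand, was lower at 78.4 ± 4.20 TPM, against 90.0 ± 5.50 TPM (-0.20, adjusted p = 0.0442), and this was the only pair of a member and its neighbour in which limma called both in set 3. In set 1 the same pair changed by -0.11 and 0.0029, and neither was called. Without NT replicates 1 and 4, LINC00342 (0.38, adjusted p = 0.0142) and LINC01547 (0.33, adjusted p = 0.00878) were called in set 3, as both were without replicate 1 alone. Their calls were lost under 8 and 11 of 22 alternatives, among them without NT replicate 2 and without NT replicate 3.

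Of the members called lower in set 3, LINC01976 (chromosome 17, 43938363 to 43938959) was 7.18, 6.82, 5.61 and 6.52 TPM in HUWE1 siRNA libraries, against 10.7, 8.44, 8.50 and 8.38 TPM in NT libraries (-0.41 ± 0.09, adjusted p = 0.0203). It was 6.24, 7.20, 7.15 and 7.30 TPM in set 2, again under every NT library, with -0.32 and no call. LINC00893 was 2.96, 4.03, 2.76 and 3.46 TPM in set 3, against 5.43, 4.51, 4.70 and 4.35 TPM (-0.42 ± 0.10, adjusted p = 0.0302), while set 2 differed by 0.02. Its near-identical copy LINC00894 leaves the split of reads uncertain. LINC01123, described as a MYC target in human lung cancer cells and nearly identical to LINC01106, was 11.8 ± 0.343 and 13.5 ± 0.858 TPM (-0.18, adjusted p = 0.046), and its adjusted p was 0.0965 without NT replicates 1 and 4 and 0.0971 without replicate 1. Without both replicates, LINC01976 (-0.33, adjusted p = 0.0256) and LINC00893 (-0.39, adjusted p = 0.0471) were called, and without replicate 1 alone LINC01976 was called (adjusted p = 0.0348) and LINC00893 was not (adjusted p = 0.069). The calls of LINC01976 and LINC00893 were lost without NT replicate 3.

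In set 2, 4 members had all 4 HUWE1 siRNA values above the 4 NT values and 1, LINC01976, below, against 1.99% and 1.71% of all genes tested. LINC00173 was 6.86, 7.06, 6.2 and 6.48 TPM in set 2, against 4.38, 5.59, 5.32 and 6.02 TPM in NT libraries (0.28, adjusted p = 0.492), and -0.05 in set 3. LINC01569, LINC02076 and LINC00659 were the others, at 0.22, 0.18 and 0.28, with adjusted p = 0.477, 0.492 and 0.523. In set 3, 16 of the 131 members had treated values above every control and 5 below, against 11.2% and 6.03% of all genes.

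Limma called 3 members in both set 1 and set 3, which share no library: LINC00115, LINC02268 and LINC00472, each in the same direction in both. They were 9.38% of the 32 called in set 1 and 27.3% of the 11 called in set 3, while over all genes tested in both tables the 784 shared calls were 16.4% and 43.2%, with 692 in the same direction. The 27.3% was near the 24.2% of all tested members called in set 1, and the 43.2% was above the 30.3% of all genes. In set 3 the calls of LINC00115, LINC02268 and LINC00472 were lost under 15 of 22, 13 of 21 and 8 of 21 alternatives. LINC00115 (chromosome 1, 826206 to 827522, minus strand, a single exon) was 13.9, 11.1, 13.1 and 11.3 TPM in HUWE1 siRNA libraries of set 1, against 18.7, 14.3, 17.8 and 17.0 TPM in NT libraries (-0.43 ± 0.09, adjusted p = 0.00581). The groups were apart in set 1 and overlapped in set 3 at NT replicate 4. LINC00115 was 11.9, 12.9, 8.53 and 10.1 TPM in HUWE1 siRNA libraries of set 3, against 27.24, 15.98, 21.34 and 11.38 TPM in NT libraries (-0.70 ± 0.21, adjusted p = 0.0475), and -0.51 with adjusted p = 0.102 without NT replicate 1. Without both replicates 1 and 4 it was -0.73 with adjusted p = 0.0133.

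LINC02268 (chromosome 4, 174094660 to 174220398, minus strand, the window with 1 CpG above) was 4.90, 4.32, 4.13 and 4.26 TPM in HUWE1 siRNA libraries of set 1, against 5.69, 5.85, 5.64 and 5.57 TPM in NT libraries (-0.31 ± 0.06, adjusted p = 0.00306). In set 3 it was 1.35, 1.07, 1.08 and 1.06 TPM, against 2.11, 1.34, 2.08 and 1.81 TPM (-0.40 ± 0.12, adjusted p = 0.0464), so that the groups overlapped narrowly at NT replicate 2, and the call was lost without NT replicates 1 and 4 (adjusted p = 0.125) and without replicate 1 alone (adjusted p = 0.108). LINC00472 (chromosome 6, 71344344 to 71420769, minus strand), described as a tumour suppressor in human breast cancer, was higher in both. It was 3.50, 3.63, 3.79 and 3.56 TPM in HUWE1 siRNA libraries of set 1, against 2.50, 2.72, 3.22 and 2.94 TPM in NT libraries (0.27 ± 0.07, adjusted p = 0.0164). In set 3 it was 3.45, 3.17, 3.51 and 3.79 TPM, against 2.28, 2.35, 2.56 and 2.96 TPM (0.34 ± 0.08, adjusted p = 0.026), with no overlap in either set. In set 3 its adjusted p was 0.0188 without NT replicates 1 and 4 and 0.0571, no longer called, without replicate 1 alone. In set 2, LINC00115, LINC02268 and LINC00472 changed by -0.30, -0.20 and 0.15, and none was called.

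LINC02154 (chromosome X, 13266048 to 13303452, minus strand) was 18.5, 18.3, 21.4 and 19.7 TPM in HUWE1 siRNA libraries of set 3, 18.1, 12.1, 12.5 and 8.76 TPM in those of set 2, and 7.17, 8.48, 7.39 and 14.6 TPM in NT libraries. The set 3 values lay above every NT value, and those of set 2 lay below the set 3 values and overlapped the NT values. The log2 fold change was 1.03 in set 3 and 0.43 in set 2, and 1.196 and 0.597 without NT replicates 1 and 4. In set 1 it was 27.8, 26.4, 23.4 and 28.3 TPM in HUWE1 siRNA libraries, against 19.97, 24.86, 23.75 and 27.97 TPM in NT libraries, with overlap (0.13).

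LINC01411 (chromosome 5, 174336295 to 174532457, plus strand) was 6.75, 6.73, 7.62 and 7.44 TPM in HUWE1 siRNA libraries of set 3, 4.52, 3.86, 4.42 and 3.65 TPM in those of set 2, and 2.50, 3.00, 3.02 and 4.46 TPM in NT libraries (0.96 in set 3 and 0.28 in set 2, and 1.02 and 0.35 without NT replicates 1 and 4). Set 3 stood above both other groups, and its 4 replicates spanned less than 1 TPM. In set 1 the direction was the opposite, at 2.09, 1.49, 1.72 and 1.54 TPM in HUWE1 siRNA libraries, against 2.13, 2.75, 2.59 and 2.71 TPM in NT libraries (-0.39), again without overlap.

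LINC01786 (chromosome 1, 1275223 to 1280420, plus strand, ending 16 bases before SCNN1D on the same strand) was 12.7, 14.2, 10.3 and 13.4 TPM in HUWE1 siRNA libraries of set 3, 18.66, 20.2, 18.16 and 18.01 TPM in those of set 2, and 18.4, 17.6, 16.3 and 19.2 TPM in NT libraries. Set 3 lay below both other groups, with -0.47 against NT libraries, while set 2 differed by 0.07, and without NT replicates 1 and 4 the values were -0.40 and 0.14. SCNN1D, which encodes a subunit of an epithelial sodium channel, was 15.9 ± 0.993 TPM in set 3 and 17.2 ± 2.01 TPM in NT libraries (-0.10, adjusted p = 0.387). In set 1, LINC01786 was 24.4, 31.0, 25.1 and 29.6 TPM in HUWE1 siRNA libraries, against 33.6, 23.9, 30.0 and 31.7 TPM in NT libraries (-0.11), with overlap.

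**Figure D5:**
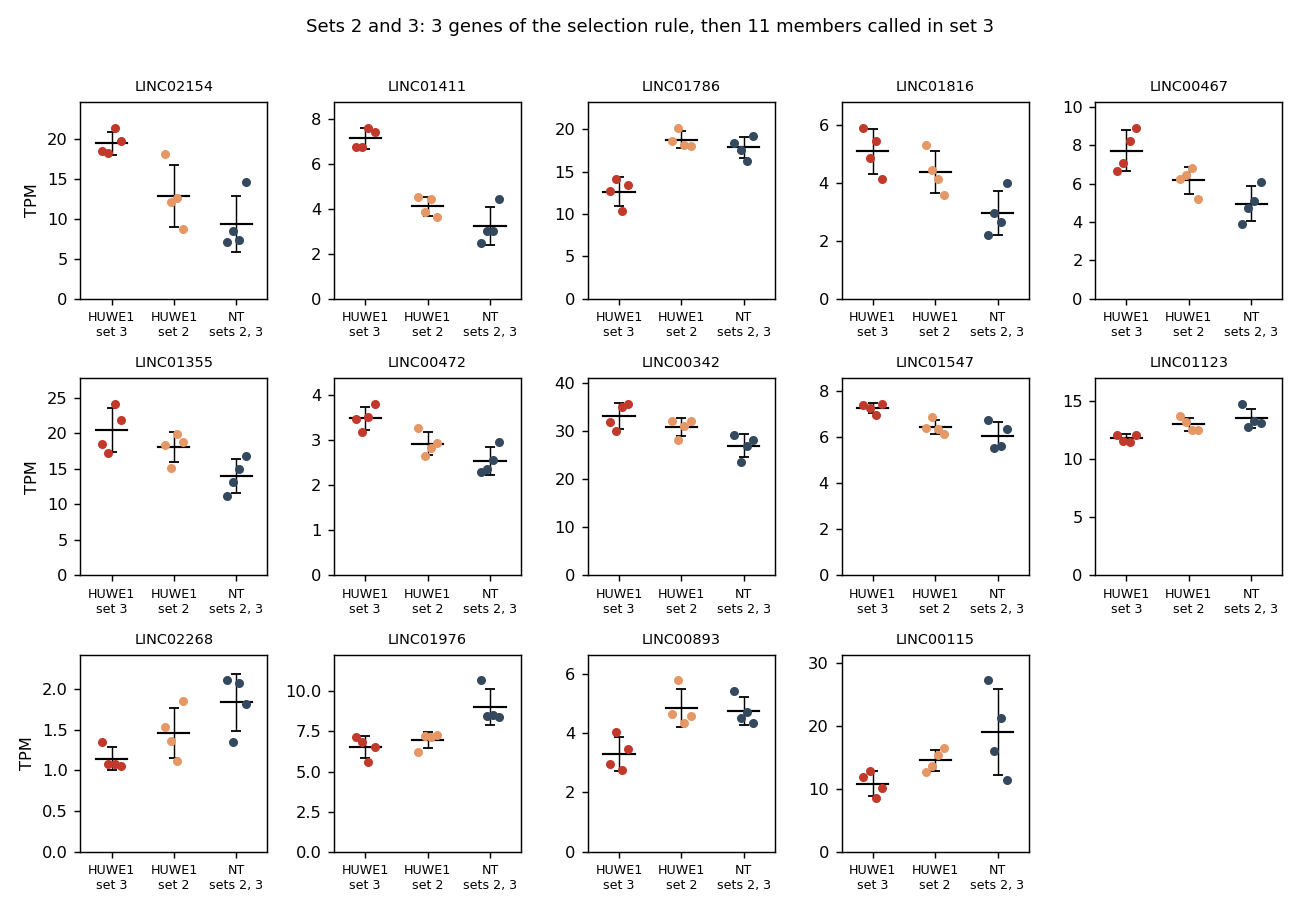
TPM of LINC02154, LINC01411 and LINC01786 and of the 11 members called in set 3, in HUWE1 siRNA libraries of sets 3 and 2 and in their shared NT libraries; each dot is a library and bars are means ± SD (n = 4). Set 3 lies apart from NT for all but LINC02268 and LINC00115.

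Set 3 against set 2 separated the 3 named genes by 0.60 for LINC02154, 0.67 for LINC01411 and -0.54 for LINC01786, and in each the 4 values of set 3 lay on 1 side of all 4 of set 2. Of the 131 other members, limma called none at the adjusted threshold, where 0.517% of all genes were called, 0.309% higher and 0.208% lower, and 16 (12.2%) had an unadjusted p under 0.05, against 15.8% of all genes. Their 4 values lay above in 5 members and below in 8, against 8.13% and 5.05% of all genes.

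Other noncoding RNA genes and the machinery of noncoding RNA processing were set beside the LINC members. Of 38 tested long noncoding RNA genes without a LINC symbol, 6 were higher and 6 lower in set 1, and 3 higher and 1 lower in set 3. MIR22HG was higher in set 1 (0.76, adjusted p = 0.00133) and MIR4435-2HG lower (-0.41, adjusted p = 0.000489). Of the snoRNA host genes, 5 were higher and 4 lower of 25 in set 1, with SNHG4 at 0.32 and SNHG15 at -0.42, and 2 higher and 4 lower of 26 in set 3. The nuclear exosome and its adaptors, which degrade many long noncoding RNAs, had 3 higher and 5 lower of 26 in set 1, with the exosome subunit EXOSC5 at -0.32 (adjusted p = 0.000228), and none higher and 2 lower in set 3, RBM7 (-0.34) and SRRT (-0.18). Of 20 factors of nonsense-mediated and 5′ to 3′ decay, 1 was higher and 5 lower in set 1 and 1, DXO, was lower in set 3. Of 30 Integrator and cleavage factors, which process noncoding RNA ends, 5 were higher and 6 lower in set 1 and 3 higher and 2 lower in set 3, with INTS14 (-0.21 and -0.15) and C7orf26 (-0.21 and -0.44) lower in both sets. Over all genes tested, 12.3% were higher and 17.9% lower in set 1, and 7.45% higher and 4.15% lower in set 3. Limma called no gene of these lists in set 2. The median log2 fold changes of the 5 lists were between -0.05 and 0.07 in set 1 and between -0.07 and 0.10 in set 3, against -0.01 and 0.01 over all genes.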

How the data were processed

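The authors deposited 2 tables of TPM values per gene symbol, 8 libraries in the first and 12 in the second, and every column was used. The genome build was hg38, as the submitters' processing notes give it, while neither aligner nor counter nor gene annotation is named in the labels or headers. TPM keeps no depth, so the precision of each value is known only from the spread between replicates. Values were tested as log2(TPM + 1) with limma 3.58.1 in R 4.3.3, with a mean trend in the variance, for genes that reached 1 TPM in 4 or more libraries of their table. P-values were adjusted by Benjamini-Hochberg over all genes tested, and called under 0.05. The first table was fitted alone, and the 12 libraries of the second shared 1 model. Scripts were tested on simulated data.

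The members and lists (long noncoding RNA genes without a LINC symbol, snoRNA hosts, nuclear exosome, nonsense-mediated and 5′ to 3′ decay, Integrator and cleavage factors) were chosen with earlier results of these data known. Named members are the 12 highest in controls, the 3 in the rule, up to 8 called in each direction per comparison, those called in 2 comparisons and those at the level minimum. Other members were named after their values were seen, to describe groups. Alternatives covered the pseudocount, filter, scaling, variance model, replicate block and left-out libraries. One marker gene of another cell type is not reported here.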

Additional observations from a re-analysis of the deposited data

Results flagged for a closer look

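A library far from the other 3 of its group was found in 13 of 200 groups of 4 over 40 named genes, where chance gives about 1 in 20, or 10. In HUWE1 siRNA libraries of set 1 these were LINC01002 at 37.3 TPM in replicate 2, LINC01123 at 15.44 TPM in replicate 4 and LINC02381 at 24.7 TPM in replicate 1. In NT libraries of set 1 they were LINC00339 at 19.85 TPM in replicate 1, LINC01123 at 15.9 TPM in replicate 3, LINC01311 at 11.2 TPM and LINC02606 at 3.09 TPM in replicate 2. In HUWE1 siRNA libraries of set 3 they were LINC01023 at 9.67 TPM in replicate 2 and LINC02268 at 1.35 TPM in replicate 1, and in set 2 LINC01976 at 6.24 TPM in replicate 1. In NT libraries of sets 2 and 3, replicate 1 stood apart for LINC01023 at 18.3 TPM, LINC01311 at 19.2 TPM and LINC01976 at 10.7 TPM.

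For LINC01411 and LINC00909 every HUWE1 siRNA library moved one way in set 3 and the other way in set 1. They were 2 of 135 members, and the same count over all genes was not made. LINC01411 had a log2 fold change of 0.96 in set 3 and -0.39 in set 1, and it entered the rule because of how it moved in set 3. LINC00909 was 4.43, 4.20, 4.68 and 4.21 TPM in HUWE1 siRNA libraries of set 3, against 3.95, 3.15, 3.81 and 3.69 TPM in NT libraries (0.21), and changed by -0.10 in set 1. These differences between sets were not tested.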

How the results depend on the processing

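Raising the level minimum of the rule to 2 TPM left 85 members. In set 1, called members were 18 with no filter and 18 at a mean of 5 TPM, and 19 to 25 with 1 library left out. In set 3, members called were 2 with no filter, 6 with the replicate block, 0 with only the 2 groups compared, and 22 with NT replicates 1 and 4 left out, an alternative chosen after seeing the data, and 0 to 37 with 1 library left out. Of all genes, set 3 called 698 with no filter, 693 with the block, 340 with only the 2 groups and 3226 without both NT replicates, and 162 to 5874 with 1 library left out. Set 2 called 2 genes, of which HUWE1 was 1. It called 1 without the mean trend, with median-of-ratios scaling, with only the 2 groups and with the block. It called 6 without mitochondrially encoded genes, and 1 to 2 with 1 library left out. HUWE1 kept its call in set 2 under every alternative, so each count of 1 was HUWE1 itself. Set 3 against set 2 called 82 genes, and 42 with no filter, 17 with the block, 328 with only the 2 groups and 20 to 228 with 1 library left out. In set 1 the block called 4597 genes and 24 members. Same-numbered libraries deviated together by correlations of 0.000215 to 0.0521 in set 1 and of -0.481 to 0.407 in the second table, so the numbers were not taken as pairs. None of 36 calls checked by name reversed its sign, 16 were kept under every alternative and 20 were lost under at least 1, among them all 11 of set 3. The 16 include the calls of HUWE1 itself in sets 1, 2 and 3. TPM hides depth, so low members are limited by replicate spread alone.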
